A study of Mus musculus with 36 samples.

Results

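The genes described here are 53 that encode subunits of the oxidative phosphorylation system, 53 of the 49585 genes in each deposited table. They were taken as a fixed list: 13 are all of the protein-coding genes of the mitochondrial genome, and 40 are nuclear genes spread over complex I (15), complex II (4), complex III (6), complex IV (8) and complex V (7). Of the mitochondrial genes, 7 belong to complex I, 1 to complex III, 3 to complex IV and 2 to complex V. All 53 were found by Ensembl identifier and all passed the filter on low counts.

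Oxidative phosphorylation passes electrons from NADH through complex I, or from succinate through complex II, to complex III and on to oxygen at complex IV, and complex V (ATP synthase) makes ATP from the resulting proton gradient. Every complex except complex II mixes subunits made inside the mitochondrion with subunits made in the cytosol and imported. The mitochondrial genes are transcribed as long RNAs from both strands and then cut into mRNAs, largely at the transfer RNAs that lie between them, whereas each nuclear subunit has its own promoter.

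RNA abundance was measured by sequencing in cultured mouse embryonic fibroblast lines that carried the knock-in allele N129D of Tbk1, a kinase of innate immunity and selective autophagy, on 0, 1 or 2 chromosomes. The wild-type (WT) group held E2.7, E2.1 and E1.5, the heterozygous (het) group E2.8, E2.6, E2.5 and E1.3, and the homozygous (hom) group E2.9, E2.2 and E1.4. Each of these 10 lines gave 3 libraries: one from untreated cells, one after 4 h with poly(I:C), which is double-stranded RNA made synthetically, and one after 4 h with antimycin plus oligomycin (AO). Antimycin inhibits complex III and oligomycin inhibits complex V, so AO acts on 2 of the complexes whose mRNAs are described here. Line E1.5 was also grown at high and at low cell density, with 1 further library for each density and treatment, 6 in all.

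Values are CPM, the usual depth-scaled counts, here with TMM scaling, and changes are on the log2 scale with their SE from edgeR's quasi-likelihood test fitted over 30 libraries. The threshold was an adjusted p of 0.05 (Benjamini-Hochberg, over 13364 genes). The libraries held 3689177 to 14879261 counts in the 10 lines, 16474077 to 22756901 at high density and 5391426 to 6308011 at low density. All 12 fibroblast markers were detected, at a summed 7970 to 19300 CPM. Their sum moved with treatment, from 12400 to 15800 CPM untreated, 14300 to 19300 CPM after poly(I:C) and 7970 to 13700 CPM after AO, so poly(I:C) and AO libraries did not overlap. The medians of the summed chondrocyte, smooth muscle and neural markers were likewise highest after poly(I:C) and lowest after AO (169, 2960 and 93.5 CPM against 82.7, 1910 and 50.8 CPM). Skeletal muscle, cardiac muscle and epithelial medians had the same order. Endothelial markers instead had their highest median after AO (16.6 CPM, against 6.76 CPM untreated and 7.84 CPM after poly(I:C)). Macrophage and erythroid medians were highest in untreated cells. The part of these shifts in the results below was not tested. Macrophage markers summed to 231 CPM or less, highest in line E2.9, and muscle markers were highest in line E1.4. In bulk libraries, fewer cells of a type and less RNA per cell cannot be told apart.

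Lines E1.4 and E2.6 stood apart. In the AO library of E1.4, 402 genes with under 1500 bases of exon had a median 1.09 above the other AO libraries and 3123 genes with over 6000 bases a median of -0.51, and in its untreated library these medians were 0.49 and -0.30. In the 24 libraries of the other 8 lines the short genes stayed between -0.07 and 0.03. The nuclear subunit mRNAs, of which 14 of 40 have under 1500 bases of exon, lay at 1.13 in the AO library of E1.4 and at 0.50 in its untreated one. Exon bases were counted over all annotated transcripts of a gene, so the main transcript can be much shorter. Ndufb8, for example, has 3146 exon bases and a principal transcript of 680 bases. Line E2.6 had an interquartile range of 0.33 to 0.41 over all genes against 0.11 to 0.23 in the other 8 lines. Results are therefore given with these 2 lines and without them, the second being a choice made after the data were seen.

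The sequences of 3 transcripts show how far the counts of the mitochondrial genes can be told apart. mt-Atp8 and mt-Atp6 encode the membrane subunits A6L and a of ATP synthase on 1 mRNA, and their reading frames overlap by 43 bases, so reads in that stretch belong to both. The mt-Atp8 transcript (GRCm38, plus strand, chrM:7766-7969) is shown with the overlap in capitals.
mt-Atp8: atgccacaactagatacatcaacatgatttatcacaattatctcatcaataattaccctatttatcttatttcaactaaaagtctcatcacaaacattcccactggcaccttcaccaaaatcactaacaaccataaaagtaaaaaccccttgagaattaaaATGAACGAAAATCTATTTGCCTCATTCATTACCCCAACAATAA

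A stretch of chromosome 1 annotated with pseudogenes (chr1:24611535-24616197, minus strand) repeats part of the mitochondrial genome. It holds copies of 7 of the 13 genes at 99% identity or more, and 5 of the copies have no mismatch over the aligned part. For mt-Nd3 and its copy Gm28438 the mismatch was T3C, counted from 1 at the 5′ end of the transcript, and the stretches that hold it are shown with that base in capitals. The mt-Nd3 stretch is chrM:9459-9491 on the plus strand and the Gm28438 stretch is chr1:24613087-24613119 on the minus strand.
mt-Nd3: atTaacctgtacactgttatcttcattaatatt
Gm28438: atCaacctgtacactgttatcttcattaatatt

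The authors' counting divided reads between these pairs. The copy held a median of 49.4% of the pair's counts for mt-Atp6, 52.3% for mt-Co2, 47.7% for mt-Co3, 54.0% for mt-Nd3 and 52.2% for mt-Nd4l. For mt-Nd4 the copy held a median of 1.70% and for mt-Co1 0.433%, where it covers 63.6% and 31.3% of the gene. In the AO library of E1.4, however, the copy of mt-Co1 held 45.2% of the pair. The values of these 7 genes are less certain than those of the other 6. With the copies' counts added, the poly(I:C) changes described below were 0.15 for mt-Co1, 0.18 for mt-Co2, 0.63 for mt-Atp6, 0.78 for mt-Co3, 0.72 for mt-Nd3, 0.14 for mt-Nd4l and 0.08 for mt-Nd4. The AO changes were 0.09, 0.15, -0.04, -0.08, -0.10, -0.28 and -0.21 in the same order, so the signs for mt-Atp6 and mt-Nd4l turned, and none of the 4 values for these 2 genes after AO passed.

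The mitochondrial genes took a median of 0.899% of all counts in untreated cells (0.696% to 1.16% over 10 lines), 1.15% after poly(I:C) (0.841% to 1.24%) and 0.861% after AO (0.669% to 1.23%). With the copies added these medians were 1.17%, 1.52% and 1.09%. The 40 nuclear genes together took medians of 0.626%, 0.685% and 0.587%, so by the medians 13 mitochondrial genes gave more counts than 40 nuclear ones in each condition. The AO library of E1.4 had the opposite order, with 0.731% mitochondrial (1.19% with the copies) and 0.91% nuclear.

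Per length, in CPM per kb of the principal transcript in untreated cells, mt-Co1, the catalytic core of cytochrome c oxidase, had the highest level (median 1970, range 1420 to 2570 over 10 lines). It was followed by mt-Atp8 at 1460, mt-Co3 at 1340, mt-Atp6 at 1040, mt-Nd1 at 744 and mt-Co2 at 725. mt-Co1 exceeded mt-Atp8 in 9 of 10 lines and mt-Co3 exceeded mt-Atp6 in 10 of 10, whereas mt-Atp8 exceeded mt-Co3 in 7 and mt-Nd1 exceeded mt-Co2 in 4. With the copies added, mt-Co3 (2690) and mt-Atp6 (2110) stood above mt-Co1 (1980), so the order at the top depends on how those reads are assigned. mt-Atp8 and mt-Atp6 share an mRNA, so their values are not levels of separate mRNAs. The libraries came from an mRNA preparation (TruSeq Stranded mRNA). How evenly it captured mitochondrial and nuclear mRNAs, and whether this differed between treatments, was not tested. The ranks within and between the genomes are therefore those of the sequenced libraries.

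The highest nuclear member was Atp5b, the catalytic beta subunit of ATP synthase, at 703 CPM per kb (644 to 854). Cox4i1, a structural subunit of cytochrome c oxidase, followed at 296 and Atp5a1, the alpha subunit, at 290, and these 2 did not separate: Cox4i1 was higher in 5 of 10 lines. The lowest were Ndufs8, an iron-sulfur subunit of complex I, at 36.9 and Sdhc, a membrane anchor of complex II, at 33.4. Nuclear members of complexes IV and V had per-length medians of 190 and 200, against 57.9 for complex I, 84.6 for complex II and 86.4 for complex III. Among the mitochondrial members the complex I genes were also the lowest group, with a median of 319 against 1340 for complex IV and 1250 for complex V.

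Poly(I:C) raised 12 of the 53 mRNAs and lowered none, averaged over the 3 genotypes (21.7% of all genes tested passed in either direction and 9.91% were higher). Of these, 5 were mitochondrial (mt-Co3, mt-Nd3, mt-Atp6, mt-Atp8 and mt-Nd1) and 7 nuclear (Atp5a1, Ndufa10, Sdhb, Sdha, Atp5b, Ndufa9 and Cyc1). The median change was 0.29 for the 13 mitochondrial and 0.18 for the 40 nuclear members, against 0 for all genes. All 13 mitochondrial and 34 of 40 nuclear values were above 0.

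The largest changes came from 4 mitochondrial genes that lie side by side: mt-Atp8, mt-Atp6, mt-Co3 and mt-Nd3. mt-Co3, a core subunit of cytochrome c oxidase, had a lowest, median and highest level of 812, 1050 and 1410 CPM in untreated cells and of 1250, 1940 and 2390 CPM after poly(I:C). It was higher in 10 of 10 lines, with a change of 0.78 ± 0.13 (edgeR's quasi-likelihood test, adjusted p = 0.000158). The ranges overlapped: the lowest poly(I:C) value was that of het line E1.3, which had 873 CPM untreated.

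mt-Nd3, a membrane subunit of complex I, lay at 77.3, 118 and 170 CPM untreated and at 172, 222 and 455 CPM after poly(I:C). Every poly(I:C) library was above every untreated one, and the change was 0.91 ± 0.21 (edgeR, adjusted p = 0.00338). With the counts of Gm28438 added it was 0.72 (edgeR, adjusted p = 0.00025).

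For mt-Atp6 the levels were 482, 706 and 1050 CPM untreated and 765, 1150 and 1370 CPM after poly(I:C), a change of 0.62 ± 0.15 (edgeR, adjusted p = 0.00527). For mt-Atp8 they were 241, 297 and 463 CPM against 348, 527 and 686 CPM, a change of 0.73 ± 0.22 (edgeR, adjusted p = 0.0175). Both were higher in 10 of 10 lines, although the ranges overlapped.

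The neighbours of these 4 genes changed less. mt-Co2, upstream of mt-Atp8 and also a core subunit of cytochrome c oxidase, had a change of 0.13 ± 0.15, and mt-Co1 one of 0.16 ± 0.14. Downstream of mt-Nd3, mt-Nd4l had 0.44 ± 0.29 (0.14 with its copy added) and mt-Nd4, another membrane subunit of complex I, 0.07 ± 0.14. None of these passed, and no test of the difference between neighbouring genes was made. mt-Nd4l and mt-Nd4 also overlap, by 7 bases, so their counts are not fully separate.

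Among the other mitochondrial mRNAs, mt-Nd1, the complex I subunit next to the quinone site, rose from 579, 712 and 1000 CPM to 687, 987 and 1250 CPM, by 0.34 ± 0.12 (edgeR, adjusted p = 0.0384). It was higher in 10 of 10 lines. mt-Nd2 was also higher in 10 of 10 lines, by 0.29 ± 0.13, and did not pass (edgeR, adjusted p = 0.111). mt-Nd5, mt-Nd6 and mt-Cytb, the cytochrome b of complex III, had changes of 0.24, 0.22 and 0.13 and did not pass.

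**Figure D1:**
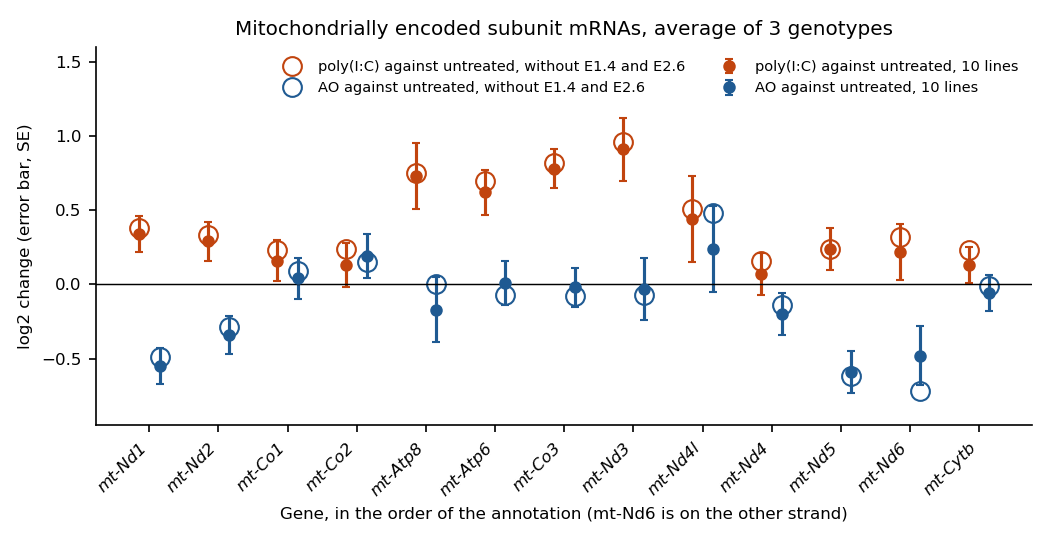
Log2 change (vertical axis) of the 13 mitochondrially encoded mRNAs in the order of the annotation (horizontal axis), after poly(I:C) in orange and AO in blue. Filled points are the fit over 10 lines with SE bars, and open circles the fit without lines E1.4 and E2.6. The poly(I:C) values of mt-Atp8, mt-Atp6, mt-Co3 and mt-Nd3 run from 0.62 to 0.91, and the lowest AO values are those of mt-Nd5 (-0.59), mt-Nd1 (-0.55), mt-Nd6 (-0.48) and mt-Nd2 (-0.34).

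Among nuclear complex I members, Ndufa10, an accessory subunit of the membrane arm, lay at 75.1, 86.1 and 111 CPM untreated and at 111, 117 and 137 CPM after poly(I:C). No poly(I:C) library was below an untreated one, and the change was 0.43 ± 0.08 (edgeR, adjusted p = 0.00048). Ndufa9, an accessory subunit near the quinone site, rose by 0.26 ± 0.07 (edgeR, adjusted p = 0.0151), from 76.5, 84.5 and 100 CPM to 85.6, 103 and 114 CPM. The other 13 nuclear complex I members did not pass and ran from -0.13 (Ndufs1, the largest iron-sulfur subunit) to 0.23 (Ndufv2).

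In complex II, which oxidises succinate, the catalytic pair passed in the fit over 10 lines and the membrane anchors did not. The difference between them was not tested, and the anchor Sdhc also passed in the fit without E1.4 and E2.6. Sdha, the flavoprotein, went from 203, 220 and 234 CPM to 218, 252 and 264 CPM, by 0.18 ± 0.05 (edgeR, adjusted p = 0.00729), and was higher in 10 of 10 lines. Sdhb, the iron-sulfur subunit, went from a range of 96.0 to 128 CPM to one of 120 to 140 CPM, by 0.28 ± 0.07 (edgeR, adjusted p = 0.00537). Sdhc and Sdhd had changes of 0.07 ± 0.06 and -0.04 ± 0.08.

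In complex III, Cyc1, the cytochrome c1, rose from 107, 124 and 161 CPM to 130, 142 and 157 CPM, by 0.19 ± 0.06 (edgeR, adjusted p = 0.029), and the other 5 nuclear members lay between 0.05 (Uqcrb) and 0.23 (Uqcrc1) without passing. In complex V, Atp5a1 rose from 660, 715 and 838 CPM to 815, 900 and 970 CPM, by 0.31 ± 0.05 (edgeR, adjusted p = 0.000186), and was higher in 10 of 10 lines. Atp5b rose from 1230, 1350 and 1640 CPM to 1430, 1600 and 1770 CPM, by 0.22 ± 0.06 (edgeR, adjusted p = 0.014), and was higher in 8 of 10 lines. None of the 8 nuclear complex IV members passed in edgeR, and none had an unadjusted p under 0.05. Their median was 0.12.

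The nuclear count depended on whether lines E1.4 and E2.6 were kept, and was higher without them. In E1.4 the median nuclear change within the line was -0.37 and in E2.6 it was below 0, whereas the other 8 lines lay between 0.17 and 0.36. Without these 2 lines 39 members rose and none fell in edgeR: 6 of 13 mitochondrial and 33 of 40 nuclear, with 38.6% of all genes passing in either direction. The nuclear members that passed without both lines came from every complex. They were 13 of 15 in complex I, 3 of 4 in complex II and 5 of 6 in complex III. In complex IV they were 6 of 8 and in complex V 6 of 7. Leaving out E1.4 alone gave 35 members, and leaving out E2.1 alone gave 7. The share of all genes in these 2 fits is not given here.

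Atp5d, the delta subunit of ATP synthase, shows what leaving out the 2 lines does to a single gene: its change was 0.40 ± 0.15 with all lines (edgeR, adjusted p = 0.0547) and 0.57 without the 2 (edgeR, adjusted p = 3e-07). The 7 nuclear members that did not pass there were Ndufa4, Ndufb3, Ndufs1, Sdhd, Uqcrfs1, Cox6c and Atp5j. Short genes as a class were also higher in that fit, with 48.5% of 402 passing upward and a median of 0.22, against 82.5% and 0.29 for the nuclear members. Whether gene length has a part in the nuclear count was not tested further. With the line as a replicate block and all 10 lines, 24 members passed, 23 of them higher, and Ndufs1 was lower, with 39.4% of all genes passing.

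**Figure D2:**
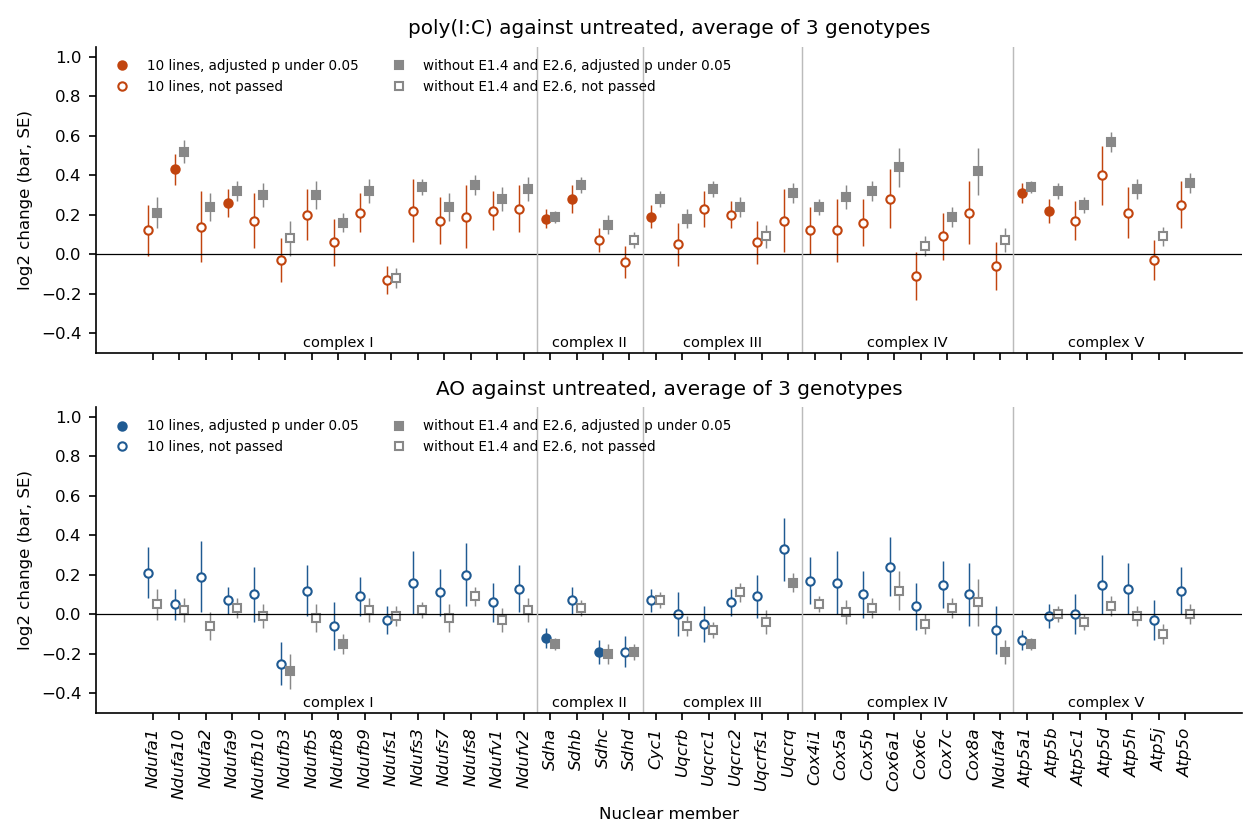
Log2 change (vertical axis, SE bars) of each of the 40 nuclear members, grouped by complex, after poly(I:C) (upper panel) and AO (lower panel). Circles are the fit over 10 lines and grey squares the fit without E1.4 and E2.6, filled where the adjusted p was under 0.05. After poly(I:C) 7 circles and 33 squares are filled; after AO 2 circles and 8 squares are.

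Promoter windows were searched for short motifs, since 33 of the 40 nuclear members rose after poly(I:C) in the fit without E1.4 and E2.6. The RefSeq windows for GRCm38.p6 (250 bases before to 50 after the start) matched 29 of the 40 nuclear members, with 32 windows. The NRF1 motif letters GCATGCGC are a core of the site bound by nuclear respiratory factor 1. They stood on either strand in 3 of the members' 32 windows (9.38%) and in 2.71% of 32851 windows of all genes. The YY1 letters AAGATGGC stood in 4 of 32 (12.5%) and 2.75%, and the ETS letters CCGGAAGT in 3 of 32 (9.38%) and 3.89%. GCATGCGC overlaps its own reverse complement, so a longer palindrome counts on both strands. The windows of Sdhb (chr4:140961021-140961320, plus strand) and Ndufa9 (chr6:126849095-126849394, minus strand) are shown as members that rose and hold a match, with the NRF1 letters in capitals in the former and the YY1 letters in the latter.
Sdhb: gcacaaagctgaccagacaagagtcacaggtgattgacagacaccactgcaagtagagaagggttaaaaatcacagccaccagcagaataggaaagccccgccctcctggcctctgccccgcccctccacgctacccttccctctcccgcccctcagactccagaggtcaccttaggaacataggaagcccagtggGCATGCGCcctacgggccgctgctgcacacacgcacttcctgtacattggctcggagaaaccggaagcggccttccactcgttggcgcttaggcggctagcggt
Ndufa9: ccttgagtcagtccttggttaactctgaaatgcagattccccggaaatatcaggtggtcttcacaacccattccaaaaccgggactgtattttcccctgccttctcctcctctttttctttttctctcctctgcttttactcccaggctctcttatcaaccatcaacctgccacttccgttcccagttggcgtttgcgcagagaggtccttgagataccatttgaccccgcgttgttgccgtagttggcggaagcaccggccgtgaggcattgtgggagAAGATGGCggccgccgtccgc

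A match is a description of the letters, and the windows of Ndufa10, Sdha and Atp5b, which also rose, held none of the 3 motifs. Atp5j, which did not pass without E1.4 and E2.6, had a window with a YY1 match. Members that rose and members that did not were not compared.

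AO lowered 5 of the 53 mRNAs and raised none, averaged over the 3 genotypes, where 33.7% of all genes tested passed. The 5 were mt-Nd1, mt-Nd5 and mt-Nd2 of complex I and Sdhc and Sdha of complex II. The median change was -0.06 for the mitochondrial and 0.08 for the nuclear members, against -0.02 for all genes. The nuclear median was -0.02 without E1.4. The share of members that passed was thus below that of all genes.

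mt-Nd1 lay at 419, 501 and 723 CPM after AO against 579, 712 and 1000 CPM untreated, a change of -0.55 ± 0.12 (edgeR, adjusted p = 0.000654). It was lower in 10 of 10 lines, by 0.18 in E2.9 and by 1.02 in E1.4 at the extremes. mt-Nd5, a proton-pumping subunit at the far end of the membrane arm, lay at 213, 272 and 492 CPM against 292, 393 and 613 CPM, a change of -0.59 ± 0.14 (edgeR, adjusted p = 0.00156), and was lower in 10 of 10 lines.

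mt-Nd2 had 228, 339 and 554 CPM after AO against 354, 406 and 565 CPM, a change of -0.34 ± 0.13 (edgeR, adjusted p = 0.0393), again lower in 10 of 10 lines. The ranges of AO and untreated libraries overlapped for each of these genes. mt-Nd6, the only member encoded on the other strand, had -0.48 ± 0.20 and did not pass (edgeR, adjusted p = 0.0626): it was lower in 9 of 10 lines and higher in E1.4, at 192 against 177 CPM. When E1.4 and E2.6 were left out its change was -0.72 (edgeR, adjusted p = 0.000286), and every AO library was below every untreated one.

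The other 9 mitochondrial genes lay between -0.20 (mt-Nd4) and 0.24 (mt-Nd4l), so the AO values of mt-Co1 (0.04), mt-Co2 (0.19), mt-Co3 (-0.02), mt-Atp6 (0.01) and mt-Cytb (-0.06) were near 0. The sign for mt-Nd4l, which overlaps mt-Nd4, was not settled: with the counts of its copy Gm10222 added the change was -0.28, and neither value passed. In the AO library of E1.4, mt-Nd4l stood at 5.73 CPM and mt-Atp8 at 49.6 CPM, below the other 9 AO libraries, while mt-Co3 (1830 CPM), mt-Nd3 (269 CPM) and mt-Co2 (1040 CPM) were above them.

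In complex II, Sdhc was lower after AO in 10 of 10 lines, with 86.2, 92 and 112 CPM against 91.3, 106 and 123 CPM, a change of -0.19 ± 0.06 (edgeR, adjusted p = 0.0143). Sdha had 186, 200 and 225 CPM against 203, 220 and 234 CPM, a change of -0.12 ± 0.05 (edgeR, adjusted p = 0.0478), and was lower in 9 of 10 lines. Sdhd was lower in 10 of 10 lines without passing (-0.19 ± 0.08), and Sdhb had a change of 0.07 ± 0.07. No nuclear member of complexes I, III, IV or V passed in edgeR. At an unadjusted p under 0.05 there were 1, 1, 0 and 1 of them.

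After AO, 12 members passed when E1.4 and E2.6 were left out, 11 lower and 1 higher, and 44% of all genes passed. The 4 mitochondrial ones were the same 3 and mt-Nd6, and complex II gave Sdha, Sdhc and Sdhd. Atp5a1 (-0.15), Ndufb3 (-0.29), Ndufb8 (-0.15) and Ndufa4 (-0.19), a subunit now placed in complex IV, were also lower. Uqcrq, a small complex III subunit, was higher (0.16). With the line as a replicate block and all 10 lines, 10 passed, 9 of them lower, with 50.4% of all genes passing. The count was 3 without E2.1, E2.7, E2.5, E2.8 or E2.2, each left out alone, and 8 without E1.4. For these fits the share of all genes is not given here.

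**Figure D3:**
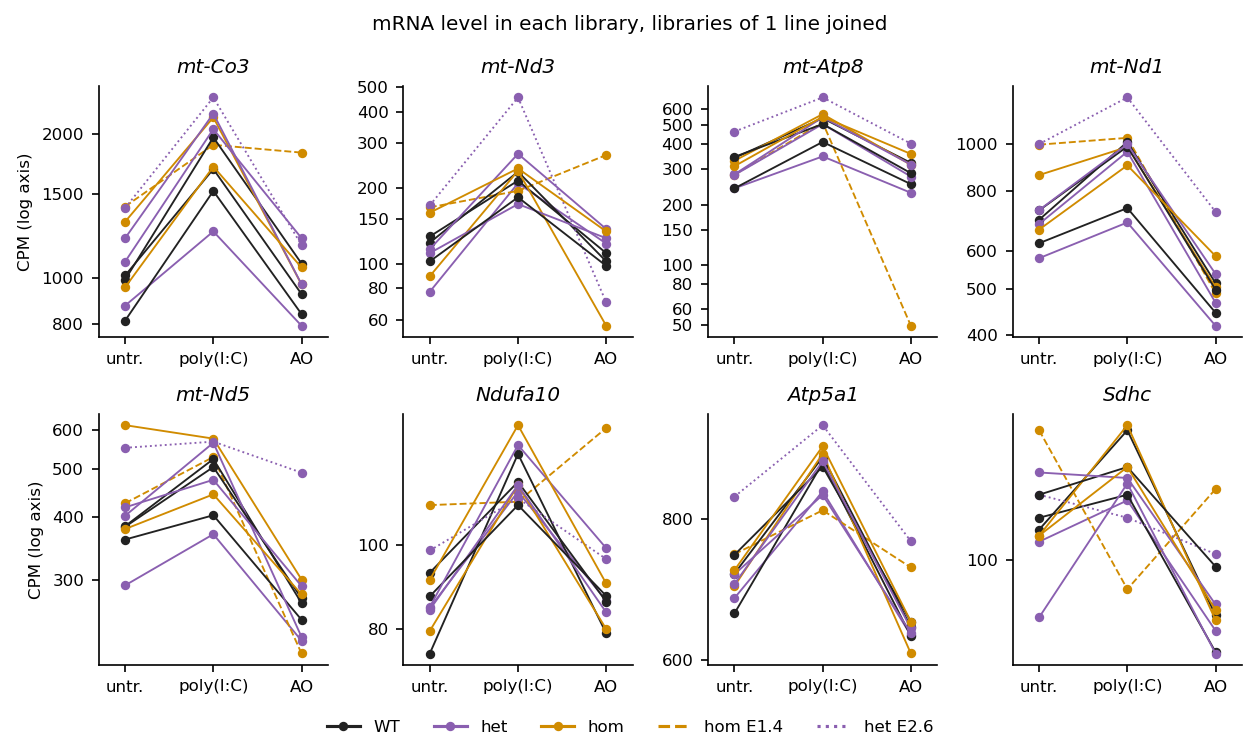
mRNA level in CPM (logarithmic vertical axis) of 8 members in the untreated, poly(I:C) and AO library of each line, with the 3 libraries of a line joined; colours give the genotype, and E1.4 and E2.6 are dashed and dotted. mt-Co3, mt-Nd3 and mt-Atp8 peak after poly(I:C) in nearly every line, mt-Nd1 and mt-Nd5 are lowest after AO, and E1.4 departs from the other lines after AO.

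Comparing the treatments directly, 16 members were lower after AO than after poly(I:C) and none was higher, where 41.4% of all genes tested passed and 20.4% were lower. They were 8 of 13 mitochondrial members, with a median over the 13 of -0.63, and 8 of 40 nuclear members, with a median over the 40 of -0.09. The comparisons of each treatment with untreated cells share the untreated libraries, so their values are given side by side and their likeness is not a result. mt-Nd1 had the strongest mitochondrial call (-0.88 ± 0.12; edgeR, adjusted p = 1.46e-06) and Atp5a1 the strongest nuclear one (-0.44 ± 0.05; edgeR, adjusted p = 3.71e-07), and every AO library of Atp5a1 was below every poly(I:C) library.

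Within single lines the mitochondrial median was lower after AO than after poly(I:C) in 10 of 10 lines, from -1.07 in E1.4 to -0.21 in E2.6. The nuclear median ran from -0.33 to -0.24 in the 8 lines other than these and was 0.96 in E1.4. Without E1.4 and E2.6, 46 members were lower, 10 mitochondrial and 36 nuclear, with 53.3% of all genes passing. Of the 402 short genes 54.7% were lower there, against 90% of the nuclear members. Leaving out E1.4 alone gave 41, and the share of all genes in that fit is not given here.

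**Figure D4:**
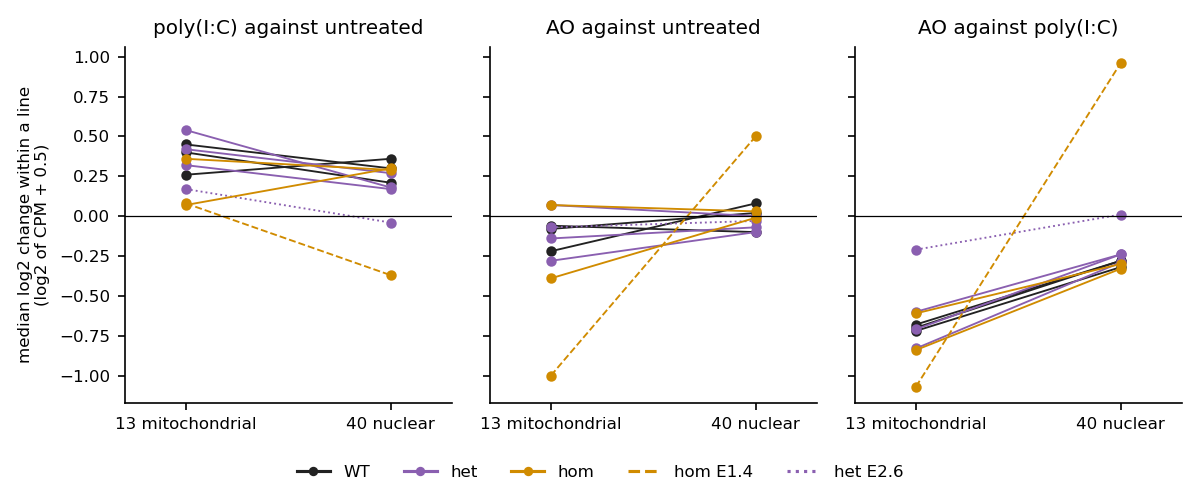
Median log2 change within each line (vertical axis) of the 13 mitochondrial and the 40 nuclear members, for the 3 comparisons of treatments; each pair of joined points is 1 line and colours give the genotype. After poly(I:C) the mitochondrial medians run from 0.07 to 0.54; between AO and poly(I:C) they are below 0 in 10 lines, and the nuclear median of E1.4 reaches 0.96.

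Within a genotype fewer members passed. After AO none passed in WT (7.66% of all genes did, 4.23% higher and 3.43% lower) or in het (11.1%, of which 6.17% higher and 4.95% lower), and mt-Nd5 (-0.84 ± 0.25; edgeR, adjusted p = 0.0268) and mt-Nd1 (-0.68 ± 0.21; edgeR, adjusted p = 0.0337) passed in hom (13.1% of all genes, 7.36% higher and 5.73% lower). In edgeR 2 members in WT and 1 in het had an unadjusted p under 0.05, and DESeq2 also called none in either. The mt-Nd1 values were -0.49 ± 0.21 in WT and -0.48 ± 0.18 in het. Neither hom call passed without E1.4 or without E2.2, and 1 passed without E2.9.

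After poly(I:C), mt-Co3 (0.88 ± 0.24; edgeR, adjusted p = 0.0425) and Atp5a1 (0.35 ± 0.10; edgeR, adjusted p = 0.0453) rose in WT, where 3.2% of all genes passed, 1.29% higher and 1.92% lower. In WT, mt-Co3 went from 812 to 1520 CPM in E1.5, from 990 to 1970 CPM in E2.1 and from 1010 to 1690 CPM in E2.7. Atp5a1 went from 660 to 898, from 716 to 909 and from 744 to 891 CPM in the same order, so the groups did not overlap. With any 1 WT line left out, 0 members passed. In het, mt-Co3, mt-Nd3 and Ndufa10 rose, where 4.67% passed, 2.24% higher and 2.43% lower. The het count was 0 without E2.5 or E2.8, 1 without E1.3 and 3 without E2.6. In hom, where 1.28% passed, edgeR called none, 6 had an unadjusted p under 0.05, and DESeq2 called 1. Without E1.4 and E2.6 the counts were 27 in WT, 21 in het and 17 in hom, all higher, with 18.8%, 17.8% and 9.58% of all genes passing. With the line as a replicate block and all 10 lines, poly(I:C) gave 9, 6 and 2 members in WT, het and hom (15.7%, 17.8% and 9.79% of all genes), and AO gave 2, 3 and 4 (22.9%, 27.5% and 29.7%), all mitochondrial and lower.

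No member passed between Tbk1 genotypes. In untreated cells hom against WT gave 0 of 53 in edgeR (0.015% of all genes passed; 1 member at an unadjusted p under 0.05), after poly(I:C) 0 (0.254%; 0 unadjusted) and after AO 0 (0% passed; 28 unadjusted). Het against WT gave 0 in each condition, with 0% of all genes passing and no member at an unadjusted p under 0.05. The AO and poly(I:C) responses of hom and WT lines likewise differed in no member, at an adjusted or an unadjusted p. DESeq2 called none in these 8 comparisons either.

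The 28 members after AO, 27 of them nuclear, moved with line E1.4. The nuclear median of hom against WT after AO was 0.52 with all lines and 0.02 without E1.4 and E2.6, when 1 member was left at an unadjusted p under 0.05. Cox4i1 is an example: its levels after AO were 228, 228 and 216 CPM in the WT lines, 221 CPM in hom E2.2, 243 CPM in hom E2.9 and 572 CPM in hom E1.4. The spread between lines limits these comparisons, and the SE of hom against WT in untreated cells was 0.11 for Cyc1 and 0.22 for mt-Cytb.

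Cell density was compared in WT line E1.5 alone, over 9 libraries, with treatment as a term. At high density 13 members were lower than at low density and none was higher. Of all genes tested, 16.8% passed and 8.24% were lower. Without the untreated libraries 7 members passed, and the share of all genes in that fit is not given here. The 13 comprised 9 of 13 mitochondrial members (median over the 13, -0.38) and 4 of 40 nuclear ones (median -0.12), namely Sdhb, Uqcrb, Atp5b and Atp5o, against a median of 0.01 for all genes.

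mt-Nd3 had 95.8 CPM untreated, 144 CPM after poly(I:C) and 75.2 CPM after AO at high density, and 181, 326 and 118 CPM at low density, a change of -0.93 ± 0.09 (edgeR, adjusted p = 2.94e-05). It was lower at high density in each treatment. mt-Co3 had 722, 1180 and 740 CPM against 960, 1770 and 979 CPM (-0.46 ± 0.05; edgeR, adjusted p = 8.85e-05), and with the copies added the changes of mt-Nd3 and mt-Co3 were -0.77 and -0.38. mt-Cytb had 524, 670 and 552 CPM against 745, 851 and 684 CPM (-0.38 ± 0.05; edgeR, adjusted p = 0.000443). mt-Co1 did not pass, with 2310, 2920 and 2670 CPM against 2490, 2970 and 2630 CPM (-0.03 ± 0.05).

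Among the nuclear members, Uqcrb, a small subunit of complex III, had 82.0, 94.7 and 78.4 CPM at high and 97.9, 123 and 97.4 CPM at low density (-0.31 ± 0.07; edgeR, adjusted p = 0.00661). With 1 line and 1 library per density and treatment, density cannot be told apart from other differences between these cultures, and the high-density libraries were also the deeper ones.

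**Figure D5:**
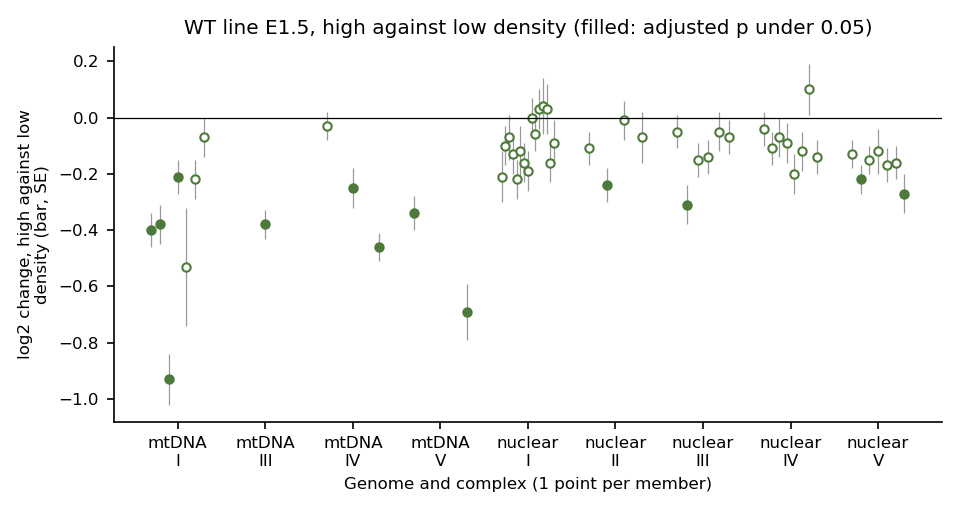
Log2 change at high against low density in WT line E1.5 (vertical axis, SE bars), 1 point per member, grouped by genome and complex; filled points had an adjusted p under 0.05. The filled points are 9 of the 13 mitochondrial and 4 of the 40 nuclear members, and the lowest is mt-Nd3 at -0.93.

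Further genes of the pathway were counted from 5 lists, to be read against all genes, of which 17% were higher and 16.7% lower after AO and 9.91% higher and 11.8% lower after poly(I:C). Of 39 tested nuclear subunits outside the 53, AO raised Ndufab1 (0.34), the acyl carrier protein, and Cycs (0.26), cytochrome c, and lowered Uqcrh (-0.55), a complex III hinge protein. Poly(I:C) raised 3: Atp5g2 (0.44), a ring subunit of ATP synthase, Ndufa12 (0.32) and Cycs (0.28). The median over these 39 was 0.07 after AO and 0.12 after poly(I:C). Without E1.4 and E2.6, 27 of the 39 were higher after poly(I:C) and none lower. The shares of all genes in this paragraph do not apply to that fit. There more of all genes passed, as given above, and 48.5% of the 402 short genes were higher.

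Of 44 assembly factors, 7 rose and 5 fell after AO, neither a larger share than among all genes. Cox10 (0.47), which makes heme O for complex IV, Ndufaf4 (0.39), which helps to assemble complex I, and Sco2 (0.57), a copper chaperone of complex IV, had the strongest calls upward, and Cox15 (-0.36), which makes heme A, Acad9 (-0.26) and Ndufaf7 (-0.34), both complex I assembly factors, those downward. After poly(I:C) 4 rose, among them Sco2 (0.82), Cox10 (0.49) and Cox18 (0.49), and Tmem126b (-0.34) and Ttc19 (-0.33) fell. Cox15 rose after poly(I:C), by 0.28. The medians over the list were 0.10 and 0.04.

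Genes for transcription, maintenance and RNA turnover of the mitochondrial genome changed in both directions, with 7 of 28 higher and 5 lower after AO. Trmt10c (0.82), a subunit of the enzyme that cuts the 5′ ends of mitochondrial transfer RNAs, Mterf3 (0.63) and Tbrg4 (0.43), an RNA-binding protein of the FASTK family, were higher. Mterf2 (-0.86), Mterf4 (-0.35) and Tefm (-0.49), the transcription elongation factor, were lower. After poly(I:C) 5 were higher, among them Tbrg4 (0.48), Supv3l1 (0.41), the helicase of mitochondrial RNA decay, and Mtpap (0.32), the mitochondrial poly(A) polymerase, and 4 were lower, among them Mterf2 (-0.67), Fastkd1 (-0.41) and Tfam (-0.26), the DNA-packaging transcription factor. Tfam was higher after AO (0.42).

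Of 8 regulators of nuclear respiratory genes, 5 rose and none fell after AO, with a median of 0.46. They included Pprc1 (0.54), a coactivator, Gabpb1 (0.55), a subunit of nuclear respiratory factor 2, and Nrf1 (0.37). After poly(I:C) Pprc1 (0.29) and Nrf1 (0.32) rose and Yy1 (-0.20) fell. Of the 4 inhibitor and isoform genes tested, Cox7a2l (0.38), a supercomplex factor, rose and Aifm1 (-0.42) fell after AO, and after poly(I:C) edgeR called none, with 1 at an unadjusted p under 0.05.

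The members also varied from line to line within a treatment. Deviations from the median of the same treatment had a median pairwise Pearson r of 0.506 among mitochondrial members, 0.773 among nuclear members and 0.192 between the groups, over 30 libraries. Without E1.4 and E2.6 (24 libraries) these were 0.702, 0.254 and 0.165. The libraries share lines and the scaling, so these values are a description.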

How the data were processed

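Each library has 1 deposited table, in which the authors give an expected count for every gene. The submitters' processing notes name STAR, RSEM and mm10 without versions. The annotation used and the strand setting were not given in the sources used here. RNeasy columns and TruSeq Stranded mRNA preparation from 500 ng of total RNA were used, per the labels' protocols. Between 6.11% and 13.4% of values were not whole. Counts were rounded, and 49326 of 49585 genes matched GENCODE vM21 (GRCm38, that is, mm10).

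Groups came from the titles. The 30 libraries of 9 groups were fitted in edgeR 4.0.16 (R 4.3.3) with TMM, filterByExpr (minimum count 10, minimum total 15), the quasi-likelihood F test and Benjamini-Hochberg adjustment; density was fitted over 9 libraries of line E1.5 and 12491 genes. Averages weight the 3 genotypes equally. Changes within lines used log2(CPM + 0.5). The test was tried on simulated counts. Copies of mitochondrial genes were found by blastn of the transcripts.

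The titles name the same line in each treatment, which pairs the libraries: their deviations from group means correlated by 0.345 to 0.782 over 30 pairs, and by -0.652 to 0.173 over 72 pairs of different lines. The main fit has no block. Libraries within a group differed beyond sampling noise (chi-square of 5.34 to 60.7 per degree of freedom), so none repeated another. The members and lists were chosen with earlier results of these data known. Genes were described in full by rule: all 13 mitochondrial members, the nuclear members with the smallest p in the averaged and other comparisons, and the highest nuclear member per complex; from each list, the 3 smallest p in each direction. Alternatives were other size factors, no filter, DESeq2 1.42.0, compared groups alone, nuclear scaling, the first part of the line name as a covariate, the block and leaving out lines; leaving out E1.4 with E2.6 and adding the copies were chosen after the data were seen.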

Additional observations from a re-analysis of the deposited data

Results flagged for a closer look

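A search for 1 library far from the other 3 was made in het groups alone, since only these hold 4 libraries. For each treatment it covered 24 members and the mitochondrial and nuclear shares of counts. Of these 78 comparisons 5 were flagged. They share libraries, so the rate of about 1 in 20 for independent comparisons is no guide here. WT and hom libraries, E1.4 among them, could not be flagged. All 5 flags fell on libraries of het line E2.6, which stood apart over all genes too. After AO, Atp5a1 had 765 CPM in E2.6 against 631 to 640 CPM in the other het lines, and Atp5b had 1600 CPM against 1280 to 1330. Untreated, Ndufa10 had 98.5 CPM against 84.3 to 84.9, mt-Co2 had 774 CPM against 468 to 506, and mt-Nd4l had 53.9 CPM against 17.1 to 19.9. Responses of the 53 members to AO and to poly(I:C) were also set side by side between genotypes, in 318 pairs. In 1 of these every line of one genotype moved one way and every line of the other the opposite way: Ndufb10, an accessory subunit of complex I, after AO. Its change lay between -0.23 and -0.06 in the 4 het lines (median -0.12) and at 0.83 in E1.4, 0.05 in E2.2 and 0.18 in E2.9 among the hom lines (median 0.18). That difference was not tested. The search covered the members alone, so no share over all genes stands beside it, and lines E1.4 and E2.6 are among those compared.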

How the results depend on the processing

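The counts of members that passed depended on the lines and on the replicate block more than on the scaling, and in no alternative did most of the called members move opposite to those first called. The nuclear median after AO turned from 0.08 to -0.02 without E1.4 and was 0 without E1.4 and E2.6. With the line as a replicate block, AO gave 10 on average and 2, 3 and 4 in WT, het and hom, and poly(I:C) gave 24 on average and 9, 6 and 2. Without E1.4 and E2.6, AO gave 12 on average and 4 and 7 in WT and het, poly(I:C) gave 39 on average and 27, 21 and 17 in WT, het and hom, and AO against poly(I:C) gave 46. With the block and without these lines, AO gave 18 on average and 13, 12 and 5, poly(I:C) gave 47 on average and 42, 37 and 35, and AO against poly(I:C) gave 50. The averaged AO and poly(I:C) shares of all genes also rose above the main fit with the block, and without these lines, as given above. For most other settings of this paragraph that share is not given. The counts are therefore not to be read as particular to these members. With no filter on low counts AO gave 3 on average, and poly(I:C) 7 on average and 0 in WT. DESeq2 gave 5 for poly(I:C) in het and 1 in hom. Fitting the compared groups alone gave 3 for AO on average, 2 in WT and 0 in hom, and 21 for poly(I:C) on average, 20 in WT and 0 in het. Leaving out 1 line at a time gave 3 to 8 for AO on average, 7 to 35 for poly(I:C) on average and 14 to 41 for AO against poly(I:C), the highest each time without E1.4. The lowest for AO came without any 1 of 5 lines and that for poly(I:C) without E2.1. Within genotypes it gave 0 to 0, 0 to 1 and 0 to 1 for AO in WT, het and hom and 0 to 0, 0 to 3 and 0 to 7 for poly(I:C). Density gave 7 without the untreated libraries. The causes were not tested. Each genotype has 3 or 4 lines and density has 1. The deposited counts divide reads between 5 mitochondrial genes and their copies almost evenly at the median, with shares that vary between libraries.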
